A study of Mus musculus with 9 samples.

Results

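Transcript levels of 39 interferon-stimulated genes, *Mx1* among them, were examined in 5TGM1-Cas9 mouse myeloma cells with deleted sugar transporter genes. The genes are 39 of the 53077 listed by symbol in each of 9 gene tables. *Mx1* was chosen by its estimated counts, which stood above control in earlier results of these same samples, and the other 38 are well known targets of interferon, taken by name. The values of *Mx1* are therefore given as a description with no test, and the question asked was whether the other 38 moved with it.

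Cells that detect viral or misplaced nucleic acid through sensors such as RIG-I, MDA5 or cGAS make type I interferon. The secreted interferon binds the receptor formed by IFNAR1 and IFNAR2, the kinases JAK1 and TYK2 are activated, and a complex that includes STAT2 and IRF9 binds DNA letters called the interferon-stimulated response element, or ISRE, near its target genes. The targets include antiviral effectors, the sensors themselves and the components of the signalling pathway. *Mx1* is a classical target of this kind whose protein, a large GTPase, blocks influenza viruses in mice, although many laboratory strains carry a defective allele. The RefSeq gene table used here lists both *Mx1* and its neighbour *Mx2* as transcribed pseudogenes, while GENCODE M21 lists *Mx1* as protein coding and *Mx2* as a polymorphic pseudogene.

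The study asked which transporter carries the fluorescent glucose analogue 2NBDG into cells. 5TGM1 is a mouse multiple myeloma line, and all cultures carried Cas9 delivered by lentivirus with blasticidin selection. The 3 groups of 3 samples had been transduced with a control gRNA against the *Rosa26* locus, with a gRNA against *Slc2a1*, which encodes the glucose transporter GLUT1, or with 5 gRNAs that target *Slc2a1* together with *Slc2a3*, *Slc2a5*, *Slc2a6* and *Slc2a8*, written *Slc2a1/3/5/6/8* gRNA below. In the last group the cells first received 4 gRNA vectors with fluorescent reporters, were sorted and expanded, and received the *Slc2a1* gRNA last. The effect of the additional vectors and of the sort cannot be told apart from that of the deleted genes. Cultures were edited in bulk and hold a mixture of alleles, and the same 3 control samples serve both comparisons with control. The labels number the replicates but do not name separate cultures, so p-values measure the spread between these samples.

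Each sample held between 21838805 and 30537105 estimated counts, and mitochondrial genes took 4.84 to 11.1% of them. Levels in CPM are estimated counts scaled to a common library size with TMM factors, and they are not corrected for gene length. The targeted *Slc2a1* stood at 198, 95.2 and 94.0 CPM in control replicates 1, 2 and 3, at 123, 98.5 and 98.0 CPM with the *Slc2a1* gRNA, and at 93.3, 91.8 and 52.9 CPM with the *Slc2a1/3/5/6/8* gRNA. It did not pass edgeR's test with its own gRNA alone (log2 fold change -0.21, adjusted p = 0.544) and fell with the *Slc2a1/3/5/6/8* gRNA (-0.66, edgeR adjusted p = 0.029). Of the other targets, with the *Slc2a1/3/5/6/8* gRNA *Slc2a8* (-1.22) and *Slc2a6* (-0.67) fell, and *Slc2a3* did not pass the test (0.27). *Slc2a5* stood at 0.210 to 0.306 CPM in control and at 1.27 to 1.81 CPM with the *Slc2a1/3/5/6/8* gRNA (log2 fold change 2.65). It had 6, 6 and 10 counts in control and 29, 36 and 51 with the *Slc2a1/3/5/6/8* gRNA. It passed edgeR's filter on low counts mainly through the latter samples, so this is a description with no test. Reads over a gene do not show frameshift edits, so transcript levels check the labels only in part. The 8 plasma cell markers summed to between 672 and 1100 TPM per sample, a unit that corrects for library size and gene length. By mean over all samples they ranged from 0.683 to 445 TPM. The lowest was thus below the highest T cell marker (1.76 TPM) and the highest stromal marker (2.97 TPM). The plasma cell marker *Jchain*, which encodes the joining chain of polymeric antibodies, fell with the *Slc2a1* gRNA (-1.33 ± 0.18, edgeR adjusted p = 0.00529) and rose with the *Slc2a1/3/5/6/8* gRNA (0.59 ± 0.17, edgeR adjusted p = 0.0348). The summed markers of T cells (at most 2.97 TPM), NK cells (at most 0.749), plasmacytoid dendritic cells (at most 0.242) and stroma (at most 5.73) were far below those of plasma cells, which fits the labelled cell type, although they are of the order of the weakly transcribed members. The sum of the 4 genes taken as stromal markers, mainly *Pecam1*, was 3.35 to 5.73 TPM in control, 3.17 to 3.69 with the *Slc2a1* gRNA and 1.74 to 2.32 with the *Slc2a1/3/5/6/8* gRNA, where *Pecam1* fell against control (-1.14 ± 0.19, edgeR adjusted p = 0.00319). Which cells gave the *Pecam1* reads was not tested, and they need not come from stroma. The 6 myeloid markers, with at most 16 counts each in any sample, summed to 0.602 to 0.88 TPM in control, 1.32 to 1.62 with the *Slc2a1* gRNA and 0.154 to 0.682 with the *Slc2a1/3/5/6/8* gRNA, without overlap between the first 2 groups. These are bulk samples, in which fewer cells with a transcript and less transcript per cell cannot be told apart.

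Most members were weakly transcribed in control cells. In the 3 control samples 17 of the 39 had a mean TPM of at least 1 and 8 a mean of at least 10. *Bst2*, which encodes the virus-tethering membrane protein tetherin, was the highest at 153 ± 7.29 TPM (SD, n = 3), followed by *Trim25*, a ubiquitin ligase that activates RIG-I, at 30.6 ± 10.2 TPM and *Ifi35* at 22.6 ± 3.19 TPM. The TPM of *Trim25*, *Ifi35* and *Isg20* (21.3 ± 2.46) differed by less than the spread of *Trim25* between replicates. *Mx1* had a control mean of 0.953 ± 1.15 TPM, below the 17 members at 1 or more. By its mean over all 9 samples, which include the groups where it was higher, it ranked 15th of 39.

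Several members were at or near 0 counts. *Oas1a*, a sensor of double-stranded RNA that feeds RNase L, and *Ifitm3*, which blocks viral entry, were at 0 counts throughout the 9 samples. Counts of 0 allow up to 3 counts per sample, or 0.0982 to 0.137 CPM by total counts, for counting error only. In all, 7 members had at most 5 counts in every sample. These included *Usp18*, a negative regulator of the interferon receptor that removes ISG15 from proteins, and *Ifit3*. The 11 members under edgeR's filter on low counts, which were not tested, were *Usp18*, *Ifit3*, *Ifi44*, *Oas1a*, *Oas2*, *Oas3*, *Oasl2*, *Xaf1*, *Rtp4*, *Samd9l* and *Ifitm3*, with at most 16 counts in any sample. The remaining 28 were *Mx1* and 27 others.

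**Figure D1:**
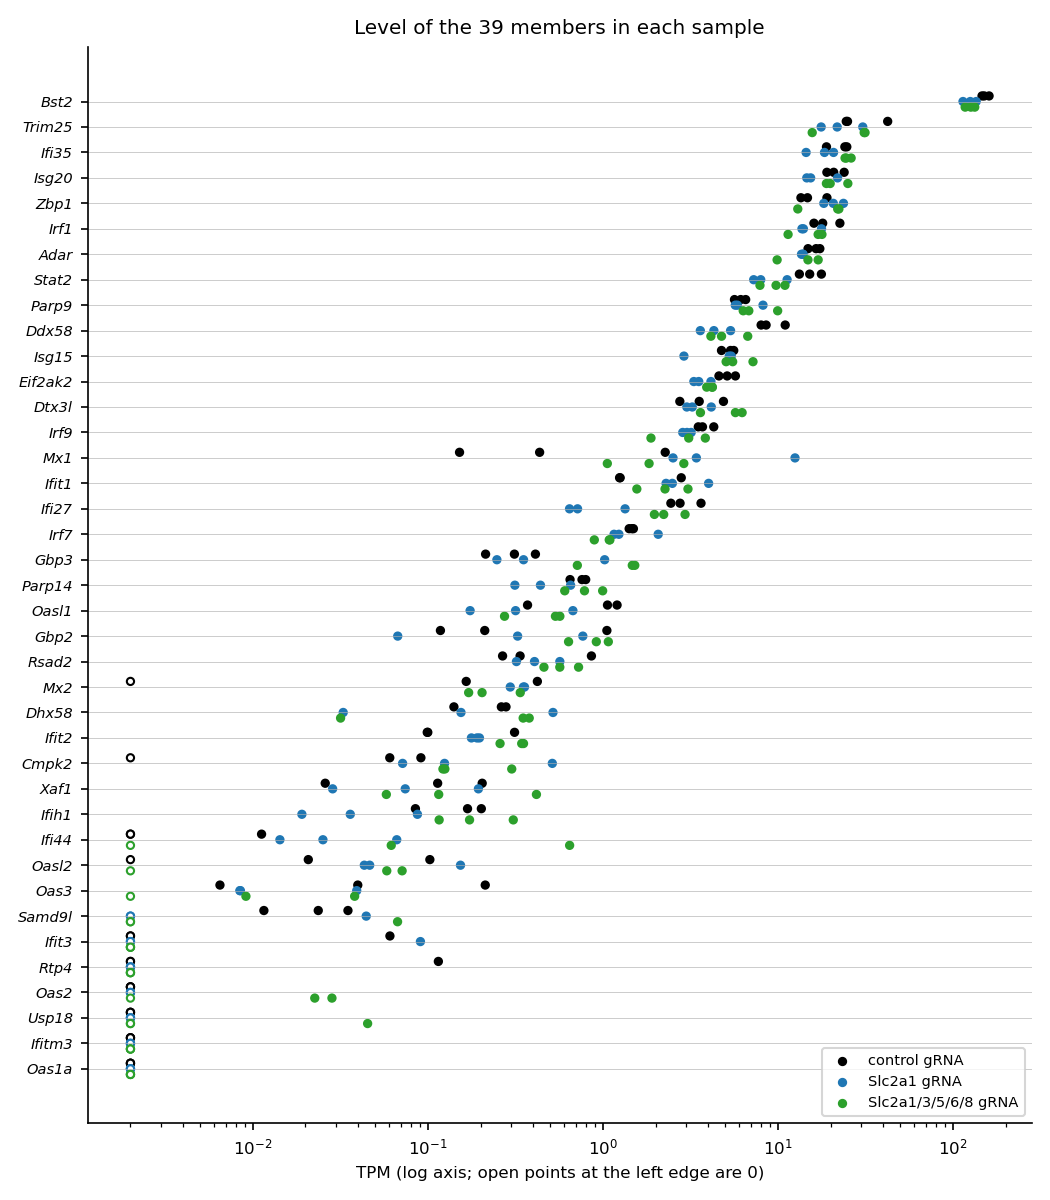
TPM of the 39 members in each of the 9 samples, on a log axis, ordered by the mean over all samples, coloured by group (black for control gRNA, blue for *Slc2a1* gRNA, green for the 5 gRNAs). Open points at the left edge are values of 0. *Bst2* lies near 153 TPM in control cells, while *Oas1a* and *Ifitm3* are at 0 in every sample.

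Promoters of members were searched for the ISRE letters, GAAA followed after any 2 bases by GAAA, on both strands in the 250 bases before the transcription start, in windows from RefSeq on GRCm38.p6. A window was given for 29 members, not including *Mx1*, *Mx2*, *Dhx58*, *Usp18*, *Ifi27*, *Oas2*, *Rtp4*, *Parp9*, *Parp14* and *Zbp1*. The letters occurred in 10 of the 29 (34.5%), against 3.46% of all 27025 genes with a window. The 10 were *Bst2*, *Gbp2*, *Gbp3*, *Ifit1*, *Ifit3*, *Isg15*, *Oas1a*, *Oas3*, *Rsad2* and *Stat2*. The palindromic letters TTCNNNGAA of the interferon-gamma activated site, GAS, occurred in 6 of 29 (20.7%) against 8.13% of genes, namely *Bst2*, *Eif2ak2*, *Ifit2*, *Irf1*, *Isg20* and *Oas1a*. A match is a description of letters and not a measured binding site.

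Stretches of 80 bases are printed for 5 members with different results. *Stat2* was lower in both deleted populations, *Gbp3* was higher with the *Slc2a1/3/5/6/8* gRNA, and *Isg15*, *Ifit1* and *Rsad2* are classical targets that did not pass the test. The stretches are written from 5′ to 3′ on the gene's strand, and capitals mark the ISRE letters, read as TTTC, any 2 bases and TTTC where they lie on the opposite strand.
*Stat2*, chr10:128270248-128270327, plus strand: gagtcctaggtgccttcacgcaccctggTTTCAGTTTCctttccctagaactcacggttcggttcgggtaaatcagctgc
*Gbp3*, chr3:142559944-142560023, plus strand: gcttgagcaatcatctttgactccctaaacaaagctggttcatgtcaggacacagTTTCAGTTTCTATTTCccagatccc
*Isg15*, chr4:156200839-156200918, minus strand: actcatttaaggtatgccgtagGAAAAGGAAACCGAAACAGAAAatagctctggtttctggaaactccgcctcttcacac
*Ifit1*, chr19:34640769-34640848, plus strand: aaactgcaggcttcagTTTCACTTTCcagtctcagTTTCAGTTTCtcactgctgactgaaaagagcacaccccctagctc
*Rsad2*, chr12:26456513-26456592, minus strand: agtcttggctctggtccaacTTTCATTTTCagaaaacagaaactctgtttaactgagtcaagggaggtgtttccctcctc
The 3 overlapping matches of *Isg15* began 78, 72 and 66 bases before the start of transcription, and that of *Stat2* 222 bases before it. Genes with these letters were thus among those that were lower, those that were higher and those that were not called. The windows of *Ddx58* and *Dtx3l*, which passed the test in a comparison, held no ISRE letters.

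*Mx1* (ENSMUSG00000000386.15) lies on chromosome 16 of GRCm38 from 97447035 to 97462907 on the minus strand. It had 37, 13 and 38 estimated counts in control replicates 1, 2 and 3, or 1.29, 0.474 and 1.16 CPM. With the *Slc2a1* gRNA it had 270, 111 and 111 counts, or 13.0, 5.06 and 4.55 CPM. With the *Slc2a1/3/5/6/8* gRNA it had 73, 68 and 119 counts, or 3.19, 3.01 and 4.22 CPM. Every sample of both deleted populations lay above every control sample on this scale, and replicate 1 of the *Slc2a1* gRNA stood apart from the other 2 of its group. The means were 0.976 ± 0.440 CPM in control, 7.53 ± 4.73 with the *Slc2a1* gRNA and 3.47 ± 0.650 with the *Slc2a1/3/5/6/8* gRNA (SD, n = 3 each). The fitted log2 fold change was 2.90 ± 0.37 (SE) for the *Slc2a1* gRNA against control and 1.91 ± 0.37 for the *Slc2a1/3/5/6/8* gRNA against control. Without *Slc2a1* gRNA replicate 1, the value of the former was 2.43. The summed myeloid markers given above were also highest with the *Slc2a1* gRNA, and their part in the values of *Mx1* was not tested.

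On the TPM scale the picture was less clear for *Mx1*. Its TPM was 0.435, 0.152 and 2.27 in the control samples, 12.5, 3.42 and 2.52 with the *Slc2a1* gRNA, and 1.06, 1.84 and 2.90 with the *Slc2a1/3/5/6/8* gRNA. Control replicate 3 thus lay above 2 of the 3 *Slc2a1/3/5/6/8* gRNA samples, and below each *Slc2a1* gRNA sample. The length that Salmon gave the gene, an average over the transcripts it assigned, moved with this. It was 2790 bases in control replicates 1 and 2 and 788 in control replicate 3, and it lay between 1100 and 2328 in the other 6 samples. The part of this length in the TPM values was not tested. With limma on log2(TPM + 1) the log2 difference was 1.76 with the *Slc2a1* gRNA and 0.69 with the *Slc2a1/3/5/6/8* gRNA, where the added 1 compresses low values, and on log2(TPM + 0.1) it was 2.84 and 1.47.

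**Figure D2:**
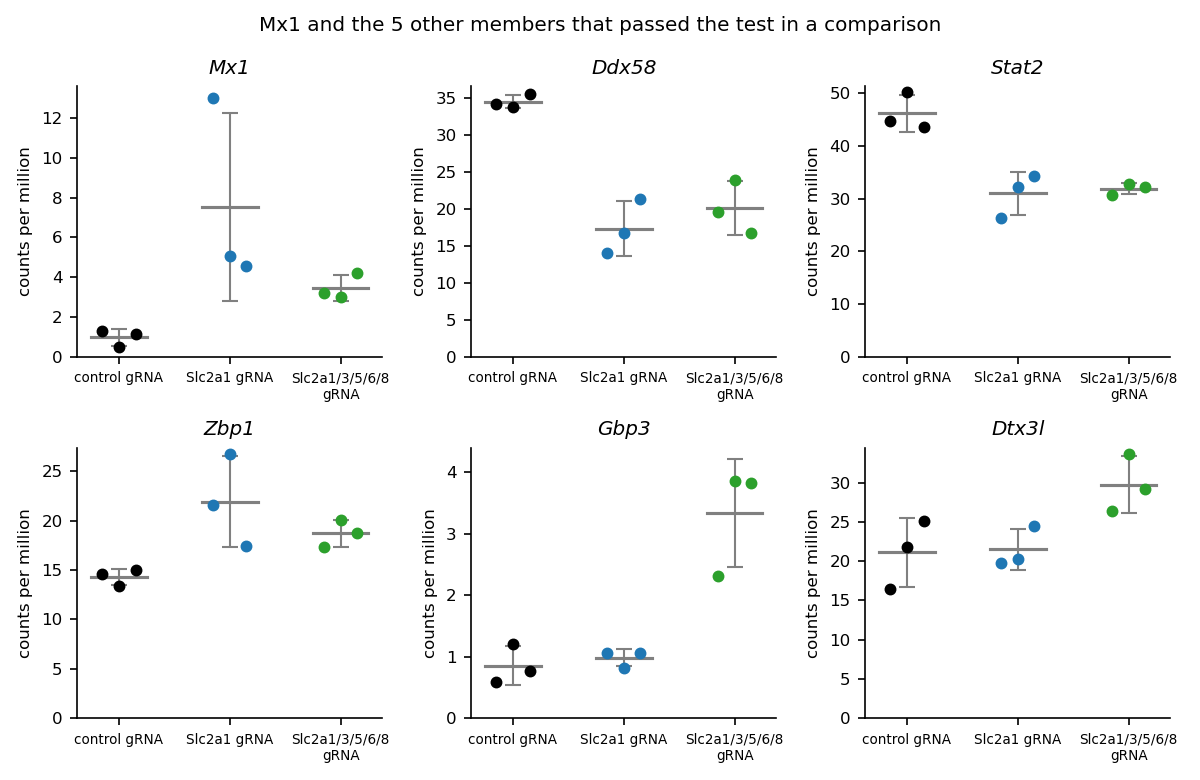
CPM in each sample for *Mx1* and the 5 other members that passed the test in at least one comparison. Points are samples in the order of replicates 1, 2 and 3, horizontal bars are group means and error bars are SD (n = 3). *Mx1* ranges from 0.474 to 1.29 in control and from 3.01 to 13.0 in the deleted populations, while *Ddx58* and *Stat2* lie lower in both deleted populations than in control.

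As a whole list, the other members did not rise together with the *Slc2a1* gRNA. Of the 27 others tested, 1 rose (*Zbp1*), 2 fell (*Ddx58* and *Stat2*) and 24 did not pass edgeR's quasi-likelihood test at a Benjamini-Hochberg adjusted p under 0.05. These 3 are 11.1% of the 27, where 4.64% of all 13834 genes tested were called, 2.25% as higher and 2.39% as lower. The median log2 fold change of the 27 was -0.09, against -0.00 over all genes tested, with 10 members above 0 and 17 below. By group, the 10 antiviral effectors tested had a median of 0.32, with 7 above 0 and 3 below. The 6 RNA and DNA sensors had -0.50 and the 4 transcription factors -0.12. The 5 genes of the ISG15 group had -0.12 and the 2 remaining genes -0.40. These medians were not tested. Each of the 3 calls was lost when any one of the 3 control samples, or *Slc2a1* gRNA replicate 1 or 2, was left out, with adjusted p-values over the 9 omissions of 0.0163 to 0.26 for *Zbp1*, 0.00297 to 0.085 for *Ddx58* and 0.00752 to 0.131 for *Stat2*. Their log2 fold changes over the omissions stayed at 0.44 to 0.76, -1.23 to -0.87 and -0.68 to -0.49. The number of all genes called dropped with those samples, from 642 to between 11 and 72. Without *Slc2a1* gRNA replicate 3 the count was 5 of the members, and the number of all genes called rose to 943.

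Against control, 2 of the 27 others rose with the *Slc2a1/3/5/6/8* gRNA (*Gbp3* and *Dtx3l*), 2 fell (*Ddx58* and *Stat2*) and 23 were not called. These 4 are 14.8% of the 27, close to the 15.9% of all genes tested that were called in this comparison, 8.49% as higher and 7.44% as lower. The median log2 fold change of the 27 was 0.21, against 0.01 over all genes, with 16 members above 0 and 11 below. By group, the median was 0.46 for the antiviral effectors, with 8 above 0 and 2 below. It was -0.07 for the sensors and -0.35 for the transcription factors. For the ISG15 group it was 0.23 and for the 2 remaining genes 0.32. These medians were not tested either. Leaving out control replicate 1 reduced the 4 calls to 1 (*Gbp3*), and leaving out control replicate 2 reduced them to 2, while the number of all genes called dropped from 2204 to 631 and 994.

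**Figure D3:**
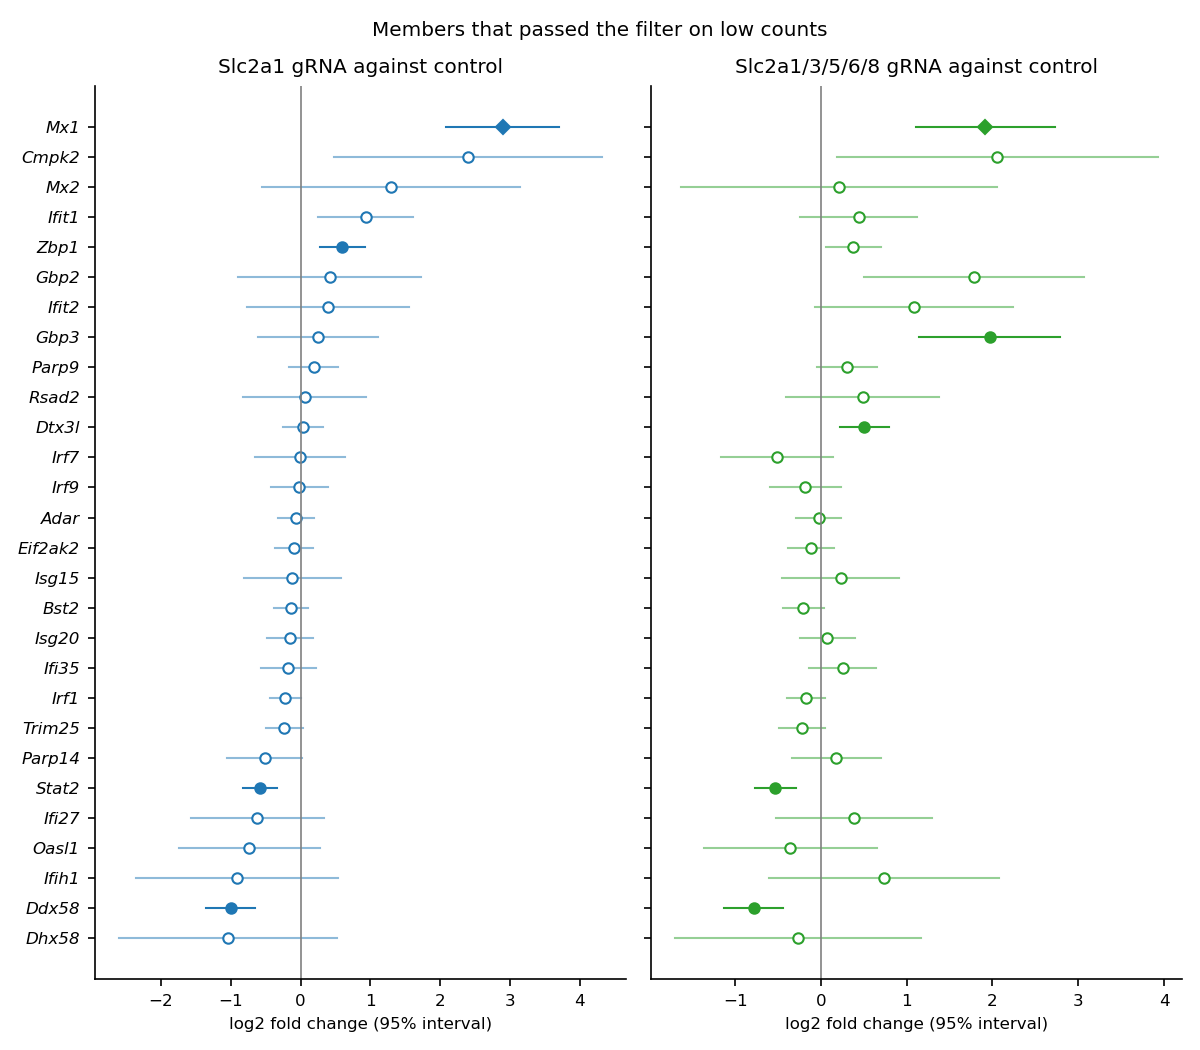
Log2 fold change and 95% interval of the 28 members that passed the filter on low counts, with the *Slc2a1* gRNA against control on the left and the *Slc2a1/3/5/6/8* gRNA against control on the right, ordered by the left panel. Filled circles passed the test, open circles did not, and the diamond of *Mx1* (2.90 and 1.91) is a description with no test. Most intervals cross 0.

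Among the 4 transcription factors, *Stat2*, a subunit of the complex that binds the ISRE, was lower in both deleted populations. It stood at 44.7, 50.2 and 43.5 CPM in control, at 26.4, 32.3 and 34.3 with the *Slc2a1* gRNA and at 30.7, 32.8 and 32.2 with the *Slc2a1/3/5/6/8* gRNA. Every sample of both deleted populations was below every control sample. The log2 fold change was -0.58 ± 0.11 (SE, edgeR adjusted p = 0.018) with the *Slc2a1* gRNA and -0.53 ± 0.11 (edgeR adjusted p = 0.00863) with the *Slc2a1/3/5/6/8* gRNA. *Irf9*, its partner, had log2 fold changes of -0.02 (95% interval -0.43 to 0.40) and -0.19 (-0.60 to 0.23). *Irf7*, which amplifies interferon production and is itself induced, had 0.00 (-0.65 to 0.64) and -0.51 (-1.17 to 0.14), and *Irf1* had -0.22 and -0.17, and neither passed the test.

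Of the 6 sensors of RNA and DNA, 1 rose and 1 fell with the *Slc2a1* gRNA (33.3%, against 4.64% of all genes) and 1 fell with the *Slc2a1/3/5/6/8* gRNA (16.7%, against 15.9%). *Ddx58* encodes RIG-I, a cytoplasmic sensor of viral RNA. Its level was 34.2, 33.7 and 35.5 CPM in control, 13.9, 16.7 and 21.3 with the *Slc2a1* gRNA and 19.6, 23.9 and 16.7 with the *Slc2a1/3/5/6/8* gRNA. The deleted populations did not overlap control. The log2 fold change with the *Slc2a1* gRNA, -0.998 ± 0.16 (edgeR adjusted p = 0.0102), a 2.00-fold lower level, was the largest decrease among the called members, and that with the *Slc2a1/3/5/6/8* gRNA was -0.79 ± 0.16 (edgeR adjusted p = 0.00749). The related sensors *Ifih1* (MDA5) and *Dhx58* (LGP2) had at most 29 and 16 counts in any sample, and neither passed the test.

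*Zbp1*, which encodes a sensor of Z-form nucleic acid that can trigger necroptosis, moved the other way. It had 14.6, 13.4 and 14.96 CPM in control and 21.6, 26.7 and 17.5 with the *Slc2a1* gRNA, a log2 fold change of 0.60 ± 0.15 (edgeR adjusted p = 0.0421). With the *Slc2a1/3/5/6/8* gRNA it had 17.4, 20.03 and 18.7 CPM, all above control, and the log2 fold change of 0.38 ± 0.15 did not pass the test (edgeR adjusted p = 0.104). With total counts in place of TMM, the call with the *Slc2a1* gRNA was lost (0.50, edgeR adjusted p = 0.0743), and with limma on TPM it was lost as well (0.39 and 0.41, adjusted p = 0.375 and 0.369). The calls of *Ddx58* and *Stat2* were also lost with limma in both comparisons with control, at adjusted p-values of 0.059 to 0.0954 and log2 fold changes of -1.04 to -0.64. *Eif2ak2*, which encodes the kinase PKR, and *Adar*, an RNA editing enzyme, had narrow intervals around 0 with the *Slc2a1* gRNA, at -0.09 (-0.36 to 0.17) and -0.06 (-0.32 to 0.20).

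Of the 6 members in the ISG15 system and the other ubiquitin or ADP-ribosyl enzymes, 5 were tested. With the *Slc2a1* gRNA edgeR called 0 of the 5, against 4.64% of all genes. An unadjusted p under 0.05 was found for 0 of the 5 and for 3037 of all 13834 genes. DESeq2 called 0 of the 5 and 1255 of all genes. Limma on log2(TPM + 1) called 0 of all genes tested in this comparison. *Isg15*, a ubiquitin-like protein and classical interferon target, had 2.24, 2.77 and 2.14 CPM in control, 2.65, 1.60 and 2.50 with the *Slc2a1* gRNA and 3.23, 2.17 and 3.15 with the *Slc2a1/3/5/6/8* gRNA. The groups overlapped, and the log2 fold changes were -0.12 (-0.81 to 0.57) and 0.23 (-0.45 to 0.91). *Dtx3l* was the member of this group that rose, with the *Slc2a1/3/5/6/8* gRNA, or 1 of the 5 (20%) against 15.9% of all genes. It encodes a ubiquitin ligase that works with the protein of *Parp9*.

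*Dtx3l* had 16.4, 21.79 and 25.1 CPM in control, 19.8, 20.3 and 24.5 with the *Slc2a1* gRNA and 26.4, 33.6 and 29.1 with the *Slc2a1/3/5/6/8* gRNA. The last group lay above all other samples. Its log2 fold change against control was 0.51 ± 0.13 (edgeR adjusted p = 0.0213), and the call was lost when any control sample or *Slc2a1/3/5/6/8* gRNA replicate 2 was left out. It was also lost in the fit with no replicate block (0.49, edgeR adjusted p = 0.0549) and with limma (adjusted p = 0.307 and 0.319). *Dtx3l* (chromosome 16, 35926511 to 35939151, minus strand) and *Parp9* (35938470 to 35972605, plus strand) overlap at their ends in GENCODE M21, and the SMART-Seq kit does not mark strand, so reads in the overlap cannot be told apart. In the same comparison *Parp9* was at 0.31 ± 0.16 on the log2 scale (edgeR adjusted p = 0.216) and *Parp14*, a nearby gene, at 0.18 ± 0.24.

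The antiviral effectors were the largest group, with 17 members other than *Mx1*, of which 10 were tested. With the *Slc2a1* gRNA edgeR called 0 of the 10, against 4.64% of all genes. An unadjusted p under 0.05 was found for 2 of the 10 (*Ifit1* and *Cmpk2*) and for 3037 of all 13834 genes. DESeq2 called 1 of the 10, whose name and direction are not given here, and 1255 of all genes. *Ifit1*, which binds viral RNA without the host's cap modifications, had 3.53, 3.68 and 6.79 CPM in control and 12.2, 8.17 and 6.39 with the *Slc2a1* gRNA. It was higher in 2 of 3 same-numbered pairs, the groups overlapped, and its log2 fold change was 0.93 ± 0.32 (edgeR adjusted p = 0.108). *Cmpk2*, a mitochondrial nucleotide kinase gene, was close to the detection limit, with 6, 0 and 9 counts in control, 40, 11 and 6 with the *Slc2a1* gRNA and 12, 9 and 26 with the *Slc2a1/3/5/6/8* gRNA. Its fitted log2 fold changes of 2.40 ± 0.88 (edgeR adjusted p = 0.136) and 2.05 ± 0.86 (edgeR adjusted p = 0.126) rest on these few counts. *Cmpk2* passed the filter on low counts through deleted samples, where its highest counts lie, so its p-values are no support for a rise. *Rsad2*, which encodes viperin and lies beside *Cmpk2* on chromosome 12, had 0.06 (-0.83 to 0.94) and 0.49 (-0.41 to 1.38).

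*Gbp3* was the effector that rose with the *Slc2a1/3/5/6/8* gRNA, or 1 of the 10 tested (10%) against 15.9% of all genes. It encodes a guanylate-binding protein, a GTPase family known for action against intracellular pathogens. Its level was 0.594, 1.20 and 0.765 CPM in control, 1.06, 0.821 and 1.07 with the *Slc2a1* gRNA, and 2.31, 3.86 and 3.83 with the *Slc2a1/3/5/6/8* gRNA. The last group lay above all 6 other samples. The log2 fold change against control was 1.97 ± 0.38 (edgeR adjusted p = 0.00585) and held in all 9 omissions of a sample. With limma it was 0.75 on log2(TPM + 1) (adjusted p = 0.0424), and on log2(TPM + 0.1) the call was lost (1.66, adjusted p = 0.0504). Against control with the *Slc2a1* gRNA it was 0.25 ± 0.40 (edgeR adjusted p = 0.767). *Gbp2* had 0.559, 0.328 and 1.56 CPM in control and 3.01, 1.55 and 2.52 with the *Slc2a1/3/5/6/8* gRNA, and its log2 fold change of 1.78 ± 0.59 missed the threshold (edgeR adjusted p = 0.0583).

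*Mx2*, the gene most like *Mx1*, did not pass the test. It had 12, 0 and 25 counts in control, 20, 23 and 13 with the *Slc2a1* gRNA and 9, 9 and 13 with the *Slc2a1/3/5/6/8* gRNA, with log2 fold changes of 1.29 (-0.55 to 3.14) and 0.21 (-1.63 to 2.05). The intervals are wide at this depth. *Bst2*, the most abundant member, had narrow ones, at -0.14 (-0.38 to 0.10) and -0.21 (-0.45 to 0.03). *Isg20*, an exonuclease gene, had -0.15 and 0.08, and *Ifi35*, which belongs to the remaining interferon-induced genes, had -0.17 and 0.25, and neither passed the test in a comparison with control.

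When the deleted populations were compared with each other, *Gbp3* was the one member called of the 27 other than *Mx1*, at 3.7% of them against 2.31% of all genes tested, 1.36% as higher and 0.947% as lower. It was higher with the *Slc2a1/3/5/6/8* gRNA by a log2 fold change of 1.71 ± 0.38 (edgeR adjusted p = 0.0382), a call lost in 7 of the 9 omissions of a sample and with both limma settings (adjusted p = 0.266 and 0.307). *Mx1* had a log2 fold change of -0.98 ± 0.34 in this comparison. Its samples ranged over 4.55 to 13.0 CPM with the *Slc2a1* gRNA and over 3.01 to 4.22 CPM with the *Slc2a1/3/5/6/8* gRNA. *Stat2* (0.05, -0.20 to 0.29) and *Ddx58* (0.21, -0.14 to 0.57) did not pass the test between the deleted populations.

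A second list of 70 further interferon-stimulated genes was counted in the same fit, of which 56 were tested. With the *Slc2a1* gRNA 3 rose and 3 fell, or 10.7% of the 56 against 4.64% of all genes. The 3 that rose were *Lgals3bp* (log2 fold change 1.02 ± 0.15, edgeR adjusted p = 0.00667), *Gbp4* (0.67 ± 0.11) and *Gbp6* (1.11 ± 0.23). The 3 that fell were *Ifi213* (-0.95 ± 0.15), *Ifi203* (-0.63 ± 0.16) and *Ifi27l2a* (-0.77 ± 0.20). *Ifi213* and *Ifi203* belong to the PYHIN family of DNA-binding proteins. The count lay between 0 and 2 of 56 when a control sample or *Slc2a1* gRNA replicate 1 or 2 was left out, while the number of all genes called lay between 11 and 72. *Lgals3bp*, a secreted glycoprotein gene, had 19.0, 11.3 and 14.7 CPM in control and 35.5, 22.3 and 33.5 with the *Slc2a1* gRNA, without overlap.

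Of these 56 genes 12 rose and 6 fell with the *Slc2a1/3/5/6/8* gRNA, or 32.1% against 15.9% of all genes. Without control replicate 1, 2 or 3 the count was 7, 7 and 8, and without *Slc2a1/3/5/6/8* gRNA replicate 3 it was 12, while the count over all genes changed from 2204 to 631, 994, 736 and 877. The median log2 fold change of the list was 0.13, against 0.01 over all genes. *Lgals3bp* (1.38 ± 0.15, edgeR adjusted p = 0.000194), *Gbp6* (1.43 ± 0.23) and *Gbp4* (0.49 ± 0.11) rose in this comparison too. *Trim14* (0.64 ± 0.13), *Trim21* (1.55 ± 0.34), an antibody receptor of the cytoplasm, and *Rnf213* (0.93 ± 0.21), a large ubiquitin ligase, rose here and had not passed the test with the *Slc2a1* gRNA (0.16, 0.63 and 0.59). These 3 calls were lost in 1, 3 and 4 of the 9 omissions of a sample. *Nlrc5*, the main activator of MHC class I genes, fell most clearly, from 141, 87.4 and 105 CPM in control to 31.0, 41.1 and 36.2. Its log2 fold change was -1.60 ± 0.17 (edgeR adjusted p = 0.00018), and it was -0.18 ± 0.16 with the *Slc2a1* gRNA. *Ifi213* (-0.999 ± 0.15) and *Ly6e* (-0.73 ± 0.12), a gene that restricts coronaviruses, fell as well. Between the deleted populations 2 genes of the list were called, 3.57% against 2.31%, with *Nlrc5* lower (-1.41 ± 0.16) and *Trim34a* higher (1.07 ± 0.24) with the *Slc2a1/3/5/6/8* gRNA. The call of *Nlrc5* held in all 9 omissions of a sample and with no replicate block, while that of *Trim34a* was lost in 7 of the 9 and with no block, and both were lost with limma.

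The interferons themselves were all but absent. Of 21 ligand genes, 14 had no count in any sample and 20 were not tested. *Ifnb1*, the interferon-beta gene, had 0 counts in 8 samples and 8 counts in *Slc2a1/3/5/6/8* gRNA replicate 3. The one ligand tested, *Ifnl2*, had 2 to 31 counts and did not pass the test.

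Of 5 interferon receptor genes tested, 1 fell with the *Slc2a1* gRNA (20%, against 4.64% of all genes) and 2 with the *Slc2a1/3/5/6/8* gRNA (40%, against 15.9%). *Ifnar2*, a subunit of the type I receptor, had 139, 122 and 131 CPM in control, 88.1, 78.7 and 107 with the *Slc2a1* gRNA and 82.8, 83.9 and 69.5 with the *Slc2a1/3/5/6/8* gRNA. It fell in both comparisons without overlap, by log2 fold changes of -0.52 ± 0.13 (edgeR adjusted p = 0.0417) and -0.73 ± 0.13 (edgeR adjusted p = 0.00405). The former call was lost in 5 of the 9 omissions of a sample and the latter in 0. *Ifnar1* fell with the *Slc2a1/3/5/6/8* gRNA (-0.47 ± 0.12, edgeR adjusted p = 0.0209), a call lost in 5 of the 9 omissions of a sample, and was at -0.22 ± 0.12 with the *Slc2a1* gRNA (edgeR adjusted p = 0.3). The kinases *Jak1* and *Tyk2* did not pass the test. Their log2 fold changes were 0.11 and -0.09 with the *Slc2a1* gRNA and 0.48 and 0.11 with the *Slc2a1/3/5/6/8* gRNA. In the latter comparison *Jak1* stayed uncalled in 8 of the 9 omissions of a sample and passed in the other (edgeR adjusted p = 0.0411). The sign of *Jak1* turned with limma on TPM values, as did that of *Irf3*, the factor that starts interferon transcription.

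Of all 37 pathway genes tested, from ligands to nucleic acid sensing and clearance, 1 rose and 3 fell with the *Slc2a1* gRNA (10.8%, against 4.64% of all genes). With the *Slc2a1/3/5/6/8* gRNA 1 rose and 4 fell (13.5%, against 15.9%). The former count was 0 when a control sample or *Slc2a1* gRNA replicate 1 or 2 was left out, and the latter was 1, 1 and 2 without control replicates 1, 2 and 3 and 3 without *Slc2a1/3/5/6/8* gRNA replicate 3. Counts over all genes dropped in the same omissions, as given above, to between 11 and 72 and to between 631 and 994. The gene that rose in both was *Tlr9*, the endosomal sensor of unmethylated DNA. It had 1.47, 0.765 and 1.13 CPM in control, 9.91, 4.42 and 3.52 with the *Slc2a1* gRNA and 2.18, 3.37 and 4.61 with the *Slc2a1/3/5/6/8* gRNA. Every deleted sample was above every control sample, and replicate 1 was the highest of the *Slc2a1* gRNA samples for *Tlr9* as for *Mx1*. Its log2 fold changes were 2.36 ± 0.42 (edgeR adjusted p = 0.0142) and 1.67 ± 0.42 (edgeR adjusted p = 0.0192), and each call was lost in 5 of the 9 omissions of a sample.

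**Figure D4:**
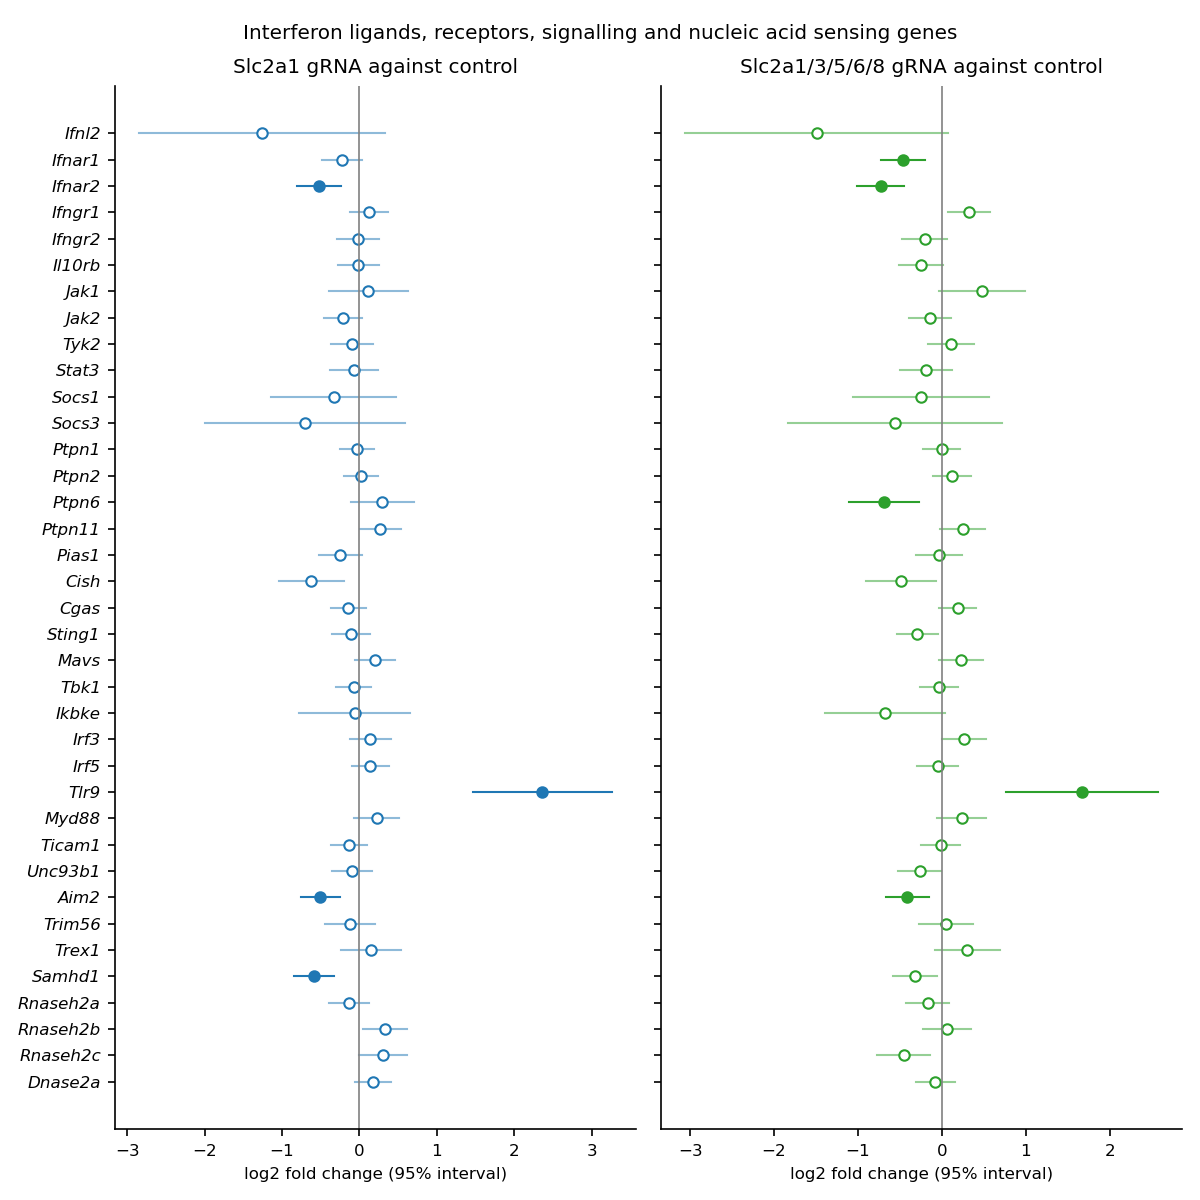
Log2 fold change and 95% interval of the 37 tested interferon pathway genes, ordered by role from ligands and receptors to JAK-STAT signalling, negative regulators, nucleic acid sensing and clearance, for the *Slc2a1* gRNA (left) and the *Slc2a1/3/5/6/8* gRNA (right) against control. Filled circles passed the test. *Tlr9* stands apart at 2.36 and 1.67, and *Ifnar2* lies below 0 in both panels.

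The other pathway genes called against control had smaller changes. *Aim2*, a sensor of cytoplasmic DNA, fell in both comparisons (-0.50 ± 0.12 and -0.41 ± 0.12, edgeR adjusted p = 0.0327 and 0.0337). *Samhd1*, which depletes nucleotides and limits retroviruses, fell with the *Slc2a1* gRNA (-0.59 ± 0.12, edgeR adjusted p = 0.0209), and *Ptpn6*, the phosphatase SHP-1, fell with the *Slc2a1/3/5/6/8* gRNA (-0.70 ± 0.19, edgeR adjusted p = 0.0291). Leaving out a sample ended the calls of *Aim2* in 5 and 6 of 9 omissions, that of *Samhd1* in 5 and that of *Ptpn6* in 4, with log2 fold changes of *Ptpn6* from -0.94 to -0.39 over the 9. The DNA sensing genes *Cgas* (-0.14 and 0.19) and *Sting1* (-0.11 and -0.29) and the factor *Irf3* (0.14 and 0.26) did not pass the test. With the *Slc2a1/3/5/6/8* gRNA, *Sting1* and *Irf3* each stayed uncalled in 8 of the 9 omissions of a sample. In the remaining omission they passed (edgeR adjusted p = 0.0382 and 0.0389). Between the deleted populations *Ptpn6* (-0.99 ± 0.19) and *Rnaseh2c* (-0.76 ± 0.15), a subunit of RNase H2, were lower with the *Slc2a1/3/5/6/8* gRNA, 5.41% of the 37 against 2.31% of all genes. Both calls were lost with no replicate block, with limma, and in 4 of the 9 omissions, those of any *Slc2a1* gRNA sample and of *Slc2a1/3/5/6/8* gRNA replicate 2.

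The genes around *Mx1* on chromosome 16 were examined next. Of the 5 tested genes on each side, *Psmg1*, *Brwd1*, *Hmgn1*, *Lca5l* and *B3galt5* at lower coordinates and *Fam3b*, *Mx2*, *Prdm15*, *C2cd2* and *Zbtb21* at higher ones, edgeR called 0 of 10 in each comparison, against 4.64%, 15.9% and 2.31% of all genes, shares at which few of any 10 genes would be called. Unadjusted p-values under 0.05 were found for 0 of the 10 with the *Slc2a1* gRNA, against 3037 of all 13834 genes. With the *Slc2a1/3/5/6/8* gRNA they were found for 2, against 4342, and between the deleted populations for 1, against 2640. DESeq2 called 0 of the 10 in each comparison, against 1255, 2569 and 758 of all genes. *Hmgn1*, the most abundant at a mean of 202 CPM in control, was at 0.20 on the log2 scale with the *Slc2a1* gRNA against control. It lies 1326 kb away. Distances run from the lowest coordinate of each gene to that of *Mx1*. They include the length of the gene at the lower coordinate. By this measure all 5 genes at lower coordinates lie at least 1211 kb from *Mx1*. The nearest genes, *Fam3b* and *Mx2*, lie 23.9 and 88.3 kb away by the same measure, the length of *Mx1* included. Both were at low counts. *Fam3b* had at most 29 counts in any sample and was at 0.81 with the *Slc2a1* gRNA and 0.45 with the *Slc2a1/3/5/6/8* gRNA, and *Mx2* is given above. *B3galt5*, the nearest at lower coordinates, was at 1.68 and 1.71 with at most 17 counts.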

How the data were processed

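RNA from 5TGM1-Cas9 cells was prepared with the NucleoSpin RNA XS and SMART-Seq v4 kits, which do not mark strand. The authors quantified reads with Salmon (version 1.5.1, per the submitters' processing notes) and deposited gene tables of estimated counts, which need not be whole, and TPM. Between 37.7 and 42.8% of estimated counts above 0 were not whole within 0.01. Salmon's transcript annotation is not given in the sources used here. Positions are from GENCODE M21, which holds 49351 of the 53077 gene names, and promoter windows from RefSeq on GRCm38.p6.

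Samples were grouped by their titles. Estimated counts were rounded and fitted with edgeR 4.0.16 (R 4.3.3) by its quasi-likelihood test, with TMM, filterByExpr, all 9 samples and a block for the replicate number. The block follows the study's paired test of sugar transporter transcripts. The study does not describe its DESeq2 analysis as paired. 13834 genes were tested, p-values were Benjamini-Hochberg adjusted over all of them and the threshold was 0.05. Standard errors and 95% intervals come from the F statistic. Alternatives were DESeq2 1.42.0, no filter on low counts, a fit with no replicate block, scaling by total counts, limma 3.58.1 on log2(TPM + 1) and log2(TPM + 0.1), and leaving out each sample. The script was tested on simulated data. Python 3.11.15 and matplotlib 3.10.9 drew the figures.

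The members and the other gene lists were chosen with earlier results of these data known. Named are *Mx1*, all called members, the 3 uncalled members with the highest TPM, members without a count, up to 8 called genes per further list and comparison, 8 pathway genes chosen by role, and 5 tested genes on each side of *Mx1*. Other members are named for their roles. Amplicon sequencing and flow cytometry were not analysed here, and the values of 1 further gene are not reported here.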

Additional observations from a re-analysis of the deposited data

How the results depend on the processing

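Beside *Mx1*, 27 members passed the filter, and counts with no filter on low counts are over all 38. With the *Slc2a1* gRNA 3 were called, 4 with DESeq2, 5 with no filter, and 0 to 5 when a sample was left out. Limma called 0 on log2(TPM + 1) and 1 on log2(TPM + 0.1), which was not among these 3. With the *Slc2a1/3/5/6/8* gRNA 4 were called, 5 with DESeq2, 1 and 0 with limma, 6 with no filter, and 1 to 5 with a sample left out. Counts over all genes rose with DESeq2 and with no filter too, as given below. Between the deleted populations 1 was called, 1 with DESeq2, 4 with no filter, 0 and 0 with limma, and 0 to 1 with a sample left out. The members called only in these other settings are not named here, nor is their direction given. For *Mx1*, limma on log2(TPM + 1) gave 1.76 and 0.69 against control and log2(TPM + 0.1) gave 2.84 and 1.47, and leaving out samples gave 2.43 to 3.31, 1.66 to 2.31 and, between the deleted populations, -1.38 to -0.56.

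Over all genes, the *Slc2a1* gRNA count of 642 became 1255 with DESeq2, 1448 with no filter, 0 and 52 with limma, and 11 to 1291 with a sample left out. The *Slc2a1/3/5/6/8* gRNA count of 2204 became 2569 with DESeq2, 2751 with no filter, 433 and 462 with limma, and 631 to 2559. Between the deleted populations 319 became 758 with DESeq2, 129 with no replicate block, 974 with no filter, 31 and 32 with limma, and 42 to 383. The 70 further genes gave 0 and 2 with limma for the *Slc2a1* gRNA (0 to 7 with a sample left out) and 5 and 6 for the *Slc2a1/3/5/6/8* gRNA (7 to 20). Between the deleted populations they gave 6 with DESeq2, 1 with no block, 7 with no filter and 0 with both limma settings (1 to 4). Pathway genes gave 0 and 0 with limma for the *Slc2a1* gRNA (0 to 5), 1 and 1 for the *Slc2a1/3/5/6/8* gRNA (1 to 6), and 0 with no block or with limma between the deleted populations (0 to 2). The causes were not tested.

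Signs turned for these values, none of them called in the main fit. With the *Slc2a1* gRNA *Dtx3l* was -0.0522 by total counts, -0.0640 and -0.0752 with limma, and -0.0549 to 0.14 with a sample left out. *Jak1* was -0.38 and -0.60 with limma and -0.12 to 0.36, *Irf3* -0.22 and -0.22, *Tyk2* -0.23 to 0.0395 and *Gbp3* -0.0409 to 0.56. With the *Slc2a1/3/5/6/8* gRNA *Jak1* was -0.14 and -0.19 and *Irf3* -0.12 and -0.13 with limma, and *Tyk2* was -0.0250 to 0.23 with a sample left out. *Stat2* between the deleted populations was -0.0332 to 0.15. The median log2 fold change of all genes with the *Slc2a1* gRNA was -0.00, and it was -0.10 by total counts and -0.11 and -0.16 with limma.

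Whether replicate numbers pair samples was checked by correlating deviations from group means, which were over 0.1 for 5 of 9 same-numbered pairs (-0.15 to 0.32). Pairs with unlike numbers ranged from -0.34 to 0.30, so the check does not settle whether the numbers pair samples. Control with *Slc2a1* gRNA gave 0.22, 0.16 and 0.32 for replicates 1, 2 and 3. Control with *Slc2a1/3/5/6/8* gRNA gave 0.19, -0.11 and 0.18, and the deleted populations gave -0.15, -0.11 and -0.04. The block thus rests on the numbers and on the study's paired test of sugar transporter transcripts. With no replicate block the members called numbered 3, 3 and 1, and *Dtx3l* had an adjusted p of 0.0549 with the *Slc2a1/3/5/6/8* gRNA. Low counts limit *Mx2*, *Cmpk2*, *Ifih1* and *Dhx58*, whose intervals are wide.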

Other observations

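The guanylate-binding protein genes differed among themselves. They were looked at after the values of *Gbp3* had been seen, so this is a description. *Gbp10* had 0.908, 0.838 and 1.44 CPM in control, 3.99, 2.78 and 2.29 with the *Slc2a1* gRNA and 3.54, 3.77 and 3.93 with the *Slc2a1/3/5/6/8* gRNA. Both deleted populations lay above control for *Gbp10*, *Gbp4* and *Gbp6*, while for *Gbp3* the *Slc2a1* gRNA samples overlapped control. *Gbp9*, the most abundant beside *Gbp4*, had 52.2, 40.95 and 47.1 CPM in control and 58.3, 59.1 and 65.7 with the *Slc2a1/3/5/6/8* gRNA. *Gbp8* stood at 25.5, 21.97 and 19.95 CPM in control, 14.5, 15.3 and 16.1 with the *Slc2a1* gRNA, all below control, and 26.9, 18.1 and 17.0 with the *Slc2a1/3/5/6/8* gRNA. *Gbp5* had 1.01, 1.14 and 0.492 CPM with the *Slc2a1* gRNA against 1.78, 1.42 and 1.10 in control. Salmon divides reads between such similar genes, so their separate levels are uncertain.

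Of the PYHIN genes, *Ifi209* and *Mndal* are given here beside those above. *Ifi209* stood at 2.69, 3.68 and 3.12 CPM in control, 2.84, 2.78 and 2.34 with the *Slc2a1* gRNA and 7.73, 7.40 and 7.79 with the *Slc2a1/3/5/6/8* gRNA. *Mndal* stood at 44.1, 44.8 and 43.0 CPM in control, 25.9, 25.7 and 32.7 with the *Slc2a1* gRNA and 42.3, 38.5 and 34.0 with the *Slc2a1/3/5/6/8* gRNA. *Ifi209* was above every control sample with the *Slc2a1/3/5/6/8* gRNA and overlapped control with the *Slc2a1* gRNA, while *Mndal* was below every control sample in both deleted populations, although edgeR called it with the *Slc2a1* gRNA and not with the *Slc2a1/3/5/6/8* gRNA. Of the others tested, *Ifi204*, *Ifi207*, *Ifi211* and *Ifi214* were called in neither comparison with control. These genes were singled out after their values were seen, and their similarity leaves the division of reads uncertain.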
